A study of Mus musculus with 12 samples.

Results

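The 8 genes described here, Hmgcs1, Idi1, Fdps, Fdft1, Sqle, Lss, Cyp51 and Srebf2, make cholesterol or control its synthesis, and they were chosen by name from the 56860 genes of the count table. All 8 were present and all 8 passed the filter on low counts, which left 30660 genes. They were followed in 12 primary mammary tumours of mice, 4 tumours for each of 3 genotypes. WT tumours carried MMTV-Cre and MMTV-PyMT, C3_KO tumours MMTV-Cre;C3Tdt:MMTV-PyMT, and S1pr1_KO tumours MMTV-Cre;S1pr1fl/fl; MMTV-PyMT, so that, per the design text, Cre and the polyoma middle T oncogene were shared by all 3 groups, although the strain label of the WT samples names MMTV-PyMT only. Tumours were taken at 4.5 months. The MMTV promoter acts mainly in mammary epithelium, so stroma, vessels and immune cells of an S1pr1_KO tumour can keep an intact S1pr1 gene. Whether the C3Tdt allele depends on Cre is not stated. Separate animals are not named for the samples of a group, so the p-values measure the spread between these samples only.

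Cholesterol is built from acetyl-CoA through the mevalonate pathway, which also supplies the isoprenoids used for protein prenylation, ubiquinone and dolichol. The transcription factor SREBP2, the product of Srebf2, is held in the endoplasmic reticulum when sterols are plentiful. When they are scarce it is cleaved, enters the nucleus and raises the genes of nearly every enzyme of the route, together with its own gene. In the mammary gland the pathway feeds membranes of growing cells and the fat globules of milk.

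Promoters are shown for Hmgcs1, Idi1 and Cyp51, whose levels were correlated across the tumours, and for Srebf2, which was not correlated with them. Of the 8 genes, 5 matched the RefSeq promoter sequences by symbol, the 4 printed and Lss. Each sequence is the 250 bases before the gene start, 5′ to 3′ on the strand of the gene, from RefSeq in build GRCm38.p6. The positions are chr13:119690101-119690350 (plus strand) for Hmgcs1, chr13:8885356-8885605 (plus) for Idi1, chr5:4104698-4104947 (minus) for Cyp51 and chr15:82147019-82147268 (plus) for Srebf2. This is an older build than the one named for the counts, so these positions are not those of the count table. Capitals mark matches, on either strand, to TCACNCCAC or TCACCCCA (forms of the sterol regulatory element bound by SREBP2), CCAAT (the NF-Y box, read ATTGG on the other strand) and GGGCGG (the GC box, read CCGCCC on the other strand).
Hmgcs1: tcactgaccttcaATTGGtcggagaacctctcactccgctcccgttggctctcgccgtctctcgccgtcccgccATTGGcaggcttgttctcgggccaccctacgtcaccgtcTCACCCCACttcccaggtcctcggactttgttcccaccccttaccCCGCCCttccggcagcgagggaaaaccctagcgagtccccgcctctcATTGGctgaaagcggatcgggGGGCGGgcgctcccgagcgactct
Idi1: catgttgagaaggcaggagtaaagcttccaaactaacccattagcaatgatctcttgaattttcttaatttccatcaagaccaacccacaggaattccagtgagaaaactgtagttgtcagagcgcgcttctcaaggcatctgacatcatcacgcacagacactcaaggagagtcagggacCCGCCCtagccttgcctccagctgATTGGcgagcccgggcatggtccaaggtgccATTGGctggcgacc
Cyp51: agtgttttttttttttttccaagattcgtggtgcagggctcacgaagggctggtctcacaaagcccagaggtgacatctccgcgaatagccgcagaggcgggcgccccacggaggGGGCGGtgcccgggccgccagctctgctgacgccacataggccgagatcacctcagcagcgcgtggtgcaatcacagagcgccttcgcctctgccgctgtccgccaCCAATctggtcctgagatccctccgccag
Srebf2: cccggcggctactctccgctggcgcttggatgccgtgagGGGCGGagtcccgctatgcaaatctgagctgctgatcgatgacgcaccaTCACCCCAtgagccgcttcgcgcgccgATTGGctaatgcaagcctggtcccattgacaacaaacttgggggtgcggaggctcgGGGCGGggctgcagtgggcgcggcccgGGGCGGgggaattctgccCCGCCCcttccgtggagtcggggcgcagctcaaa

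Hmgcs1 was the only promoter of the 5 with TCACNCCAC, at 137 to 129 bases before the start, overlapping a match to TCACCCCA. Srebf2 held TCACCCCA at 162 to 155 bases before the start. Other spellings of the sterol regulatory element were not searched, so a promoter without these matches can still hold one. Of all 32851 promoter windows of this length, 1.05% held TCACNCCAC and 1.34% held TCACCCCA. All 5 promoters held CCAAT and GGGCGG, which were in 33.8% and 32.7% of all windows. CCAAT was present 3 times in Hmgcs1, 2 times in Idi1 and 1 time each in Cyp51, Lss and Srebf2, whereas GGGCGG was present 4 times in Srebf2. A match to these letters is a description of the sequence, and none of the files measured binding to it.

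Libraries held between 230.4 and 484 M counts, M standing for 1e+06, with a median of 361.7 M. The smallest count of any of the 8 genes was 4772, for Cyp51 in S1pr1_KO replicate 1. Among all genes no gene was called in any of the 3 comparisons at an adjusted p below 0.05 (edgeR quasi-likelihood test, Benjamini-Hochberg). That count was not stable for S1pr1_KO against WT. DESeq2 called 930 genes there, limma-voom with quality weights 7828, and edgeR 1330 of 31286 without S1pr1_KO replicate 3, a fit in which none of the 8 was called. The targeted genes themselves did not separate the groups: C3 stood at 41.6 to 75.1 CPM in C3_KO and 43.3 to 182 CPM in WT, and S1pr1 at 2.59 to 7.43 CPM in S1pr1_KO and 2.88 to 8.02 CPM in WT. CPM, counts per 1e+06, use library sizes corrected by TMM, the trimmed mean of M values. Markers of luminal epithelium were measured in 9 of 9 cases, with a mean log2 CPM of 8.11 to 9.05 in WT, 7.79 to 8.74 in C3_KO and 7.58 to 8.81 in S1pr1_KO, and none was at 0. Some libraries stood apart in milk protein genes or in markers of other tissues and cell types. Milk protein genes, 8 of 8 measured, had a mean log2 CPM of 12.30 in C3_KO replicate 3, against 3.97 to 5.57 in the other C3_KO libraries, 3.98 to 5.26 in WT and 2.41 to 4.78 in S1pr1_KO. Salivary gland genes, 8 of 8 measured, reached 9.40 in S1pr1_KO replicate 1 and 5.96 in replicate 4, against -0.10 to 2.19 in WT and -3.32 to 0.59 in C3_KO. Of the 8, 2 were at 0 in some C3_KO library and 1 in some S1pr1_KO library. Adipocyte markers, 10 of 10 measured, reached 6.22 and 6.16 in S1pr1_KO replicates 1 and 2, against 0.13 to 4.25 in WT and 2.06 to 4.42 in C3_KO. B cell markers, 7 of 7 measured, stood at 4.34 and 3.48 in the same S1pr1_KO libraries and at 0.84 or less in the others. S1pr1_KO replicates 3 and 4, at -1.56 and -1.30, lay within the WT range of -1.73 to -0.52. All 7 had an unadjusted p below 0.05 in S1pr1_KO against WT (edgeR), where 15.5% of all genes did, with none called. S1pr1_KO replicates 1 and 2 were also the lowest of the 12 for the mean log2 CPM of the 8 genes, at 5.284 and 5.378. The latter was nearly tied with WT replicate 2 at 5.38 and C3_KO replicate 4 at 5.396. The part of the adipocyte and B cell markers was not tested. In whole tumours, fewer cells of a type and less RNA per cell cannot be told apart.

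Per unit of length, the regulator was the most abundant of the 8 genes and the cyclase the least. In FPKM, the authors' counts scaled by gene length and library total, the mean over 12 libraries was 22.8 ± 5.91 for Srebf2 (SD, n = 12). Fdps followed at 17.4 ± 7.12, then Hmgcs1 at 12.4 ± 3.34, Idi1 at 11.2 ± 4.52, Fdft1 at 10.6 ± 1.68, Sqle at 9.18 ± 2.23, Cyp51 at 6.60 ± 2.06 and Lss at 3.02 ± 0.75 FPKM (SD, n = 12). Only the lowest steps of this order held in every tumour, with Sqle above Cyp51 and Cyp51 above Lss in 12 of 12 libraries. Idi1 exceeded Fdft1 in 6 of 12 libraries, so this pair of neighbours was not separated. Srebf2 exceeded Fdps in 9, Fdps exceeded Hmgcs1 in 8, Hmgcs1 exceeded Idi1 in 9 and Fdft1 exceeded Sqle in 9 of 12, each with overlapping ranges. The deposited length of 7 of the 8 genes equalled the union of all their annotated exons. For Lss that union is 10787 bases, the longest of the 8, over which its FPKM is averaged, and for Cyp51 it is 4415 bases. In CPM, which are not scaled by length, the order of these genes was reversed. The median over the 12 libraries was 32.3 CPM for Lss and 25.7 CPM for Cyp51, so the place of Lss rests on the length used.

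**Figure D1:**
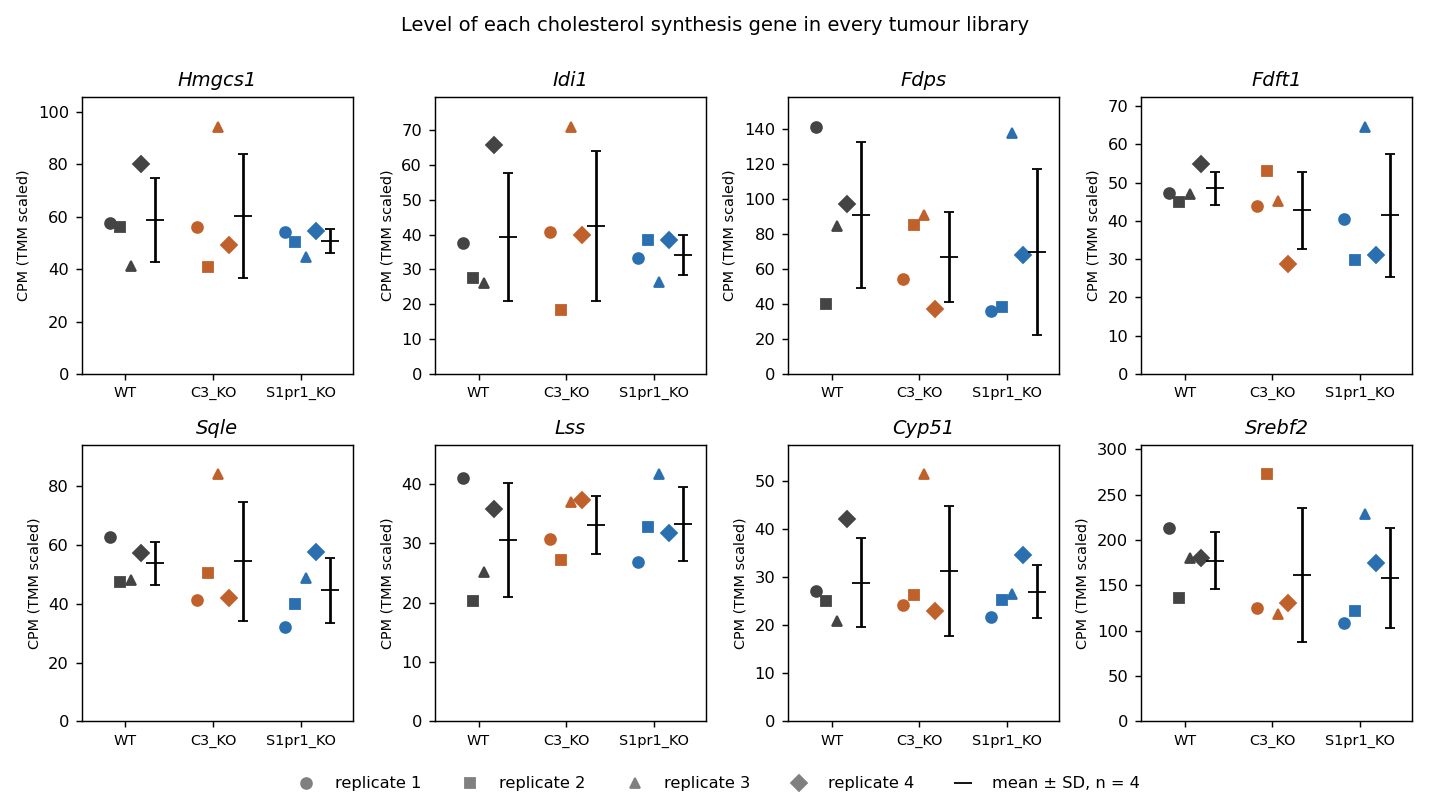
Each panel shows 1 gene, with CPM on a linear vertical axis that starts at 0 and the 3 genotypes on the horizontal axis. Symbols are single tumour libraries by replicate and the bar beside them is the mean ± SD of 4; in every panel the 3 groups overlap, and C3_KO replicate 3 is the highest triangle for Hmgcs1, Idi1, Sqle and Cyp51.

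Hmgcs1 encodes the cytosolic synthase that joins acetyl-CoA and acetoacetyl-CoA at the head of the mevalonate pathway. It stood at 57.6, 56.2, 41.3 and 80.1 CPM in WT replicates 1 to 4, at 56.3, 40.8, 94.4 and 49.3 CPM in C3_KO, and at 54.3, 50.4, 44.6 and 54.4 CPM in S1pr1_KO. C3_KO replicate 3 and WT replicate 4 were the highest, the 4 S1pr1_KO tumours lay within the WT range, and all groups overlapped. Against WT the log2 fold change was 0.03 ± 0.27 (SE) in C3_KO and -0.21 ± 0.27 in S1pr1_KO (edgeR adjusted p = 0.98 and 0.731). An antisense gene, Gm48342, shares 12.1% of the exon bases of Hmgcs1, and strand handling is not given in the sources used here. Its count was 8.17 to 25.9% of that of Hmgcs1, and at 18.8 CPM it too was highest in C3_KO replicate 3, so reads of the pair cannot be told apart there.

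Idi1 encodes the isomerase that makes dimethylallyl diphosphate, the starter unit of isoprenoid chains. Its level was 37.6, 27.6, 26.1 and 65.8 CPM in WT, 40.7, 18.2, 71.0 and 39.9 CPM in C3_KO and 33.2, 38.5, 26.3 and 38.5 CPM in S1pr1_KO. The same libraries as for Hmgcs1, C3_KO replicate 3 and WT replicate 4, were far above the rest, and C3_KO replicate 2 was the lowest of all 12, a 3.89-fold range. The groups overlapped, with a log2 fold change of 0.11 ± 0.38 (SE) in C3_KO and -0.20 ± 0.38 in S1pr1_KO against WT (edgeR adjusted p = 0.947 and 0.819).

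Fdps encodes farnesyl diphosphate synthase, the enzyme at the branch between sterols and other isoprenoids. In CPM it had the widest range of the 8, nearly tied with the 3.89-fold range of Idi1. It stood at 141, 39.8, 84.3 and 97.2 CPM in WT, at 54.1, 85.3, 91.0 and 37.1 CPM in C3_KO and at 36.0, 38.4, 138 and 67.7 CPM in S1pr1_KO. WT replicate 1 and S1pr1_KO replicate 3 were the highest and S1pr1_KO replicate 1 the lowest, a 3.93-fold range with overlap between all groups. The log2 fold change against WT was -0.44 ± 0.47 (SE) in C3_KO and -0.37 ± 0.47 in S1pr1_KO (edgeR adjusted p = 0.824 and 0.723). A processed pseudogene, Gm3571, matches the Fdps transcript at 98.87% of 1062 bases and was counted at 6.77 to 8.66% of Fdps in each library. A protein-coding gene on the same strand, Gm43738, shares 26.7% of the exon bases of Fdps. It has no row of that name in the count table, so its reads cannot be told apart from those of Fdps there.

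Fdft1 encodes squalene synthase, which commits farnesyl units to sterols. It stood at 47.4, 44.8, 47.0 and 54.8 CPM in WT, at 44.0, 53.0, 45.3 and 28.8 CPM in C3_KO and at 40.4, 29.8, 64.6 and 31.0 CPM in S1pr1_KO. The WT tumours kept close together, at 48.5 ± 4.36 CPM, while S1pr1_KO held the highest library and spread over 41.5 ± 16.1 CPM (SD, n = 4). The log2 fold change against WT was -0.18 ± 0.26 (SE) in C3_KO and -0.23 ± 0.26 in S1pr1_KO (edgeR adjusted p = 0.872 and 0.695). In S1pr1_KO the value was -0.58 with limma-voom and quality weights (limma adjusted p = 0.0394), a fit that called 25.5% of all genes. Over the 22 alternatives it ran from -0.58 to 0.02 with adjusted p-values no lower than that. Fdft1 shares 18.3% of its exon bases with Ctsb, a lysosomal protease gene on the opposite strand. Ctsb was counted at 1170 to 2200% of Fdft1, with 664 ± 21.1 CPM in WT, 796 ± 170.1 CPM in C3_KO and 616 ± 98.2 CPM in S1pr1_KO (SD, n = 4). Without strand information the part of Ctsb reads in the Fdft1 count cannot be told apart.

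Sqle encodes squalene epoxidase, the first oxygen-dependent step and a rate-limiting enzyme of sterol synthesis. Its level was 62.6, 47.4, 48.2 and 57.3 CPM in WT, 41.3, 50.6, 84.2 and 42.0 CPM in C3_KO and 32.1, 39.98, 48.9 and 57.6 CPM in S1pr1_KO. C3_KO replicate 3 was again the highest, and S1pr1_KO replicate 1 was the lowest of the 12. Against WT the log2 fold change was 0.02 ± 0.26 (SE) in C3_KO and -0.27 ± 0.26 in S1pr1_KO (edgeR adjusted p = 0.991 and 0.629). S1pr1_KO replicate 1 was also the lowest library for luminal epithelium markers, at a mean log2 CPM of 7.58, and their part in this value was not tested.

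Lss encodes lanosterol synthase, which folds the squalene chain into the sterol rings, and in CPM it had the narrowest range of the 8, 2.06-fold. It stood at 41.1, 20.3, 25.1 and 35.9 CPM in WT, at 30.7, 27.3, 37.1 and 37.3 CPM in C3_KO and at 26.9, 32.8, 41.6 and 31.7 CPM in S1pr1_KO. WT held the lowest library, replicate 2, and S1pr1_KO replicate 3 the highest. The log2 fold change against WT was 0.11 ± 0.24 (SE) in C3_KO and 0.12 ± 0.24 in S1pr1_KO (edgeR adjusted p = 0.917 and 0.83).

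Cyp51 encodes the demethylase that turns lanosterol toward cholesterol. Its level was 27.2, 25.2, 20.8 and 42.2 CPM in WT, 24.2, 26.3, 51.45 and 23.0 CPM in C3_KO and 21.7, 25.2, 26.5 and 34.7 CPM in S1pr1_KO. Outside C3_KO replicate 3, WT replicate 4 and S1pr1_KO replicate 4 the values were close together, between 20.8 and 27.2 CPM. The log2 fold change against WT was 0.11 ± 0.30 (SE) in C3_KO and -0.09 ± 0.30 in S1pr1_KO (edgeR adjusted p = 0.934 and 0.901). Cyp51 shares 3.76% of its exon bases with Akap9 on the other strand, a gene counted at up to 488% of Cyp51.

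Srebf2 stood at 213, 135.6, 180.7 and 179.9 CPM in WT, at 125, 272.5, 118 and 130.3 CPM in C3_KO and at 108, 122, 229 and 175 CPM in S1pr1_KO. C3_KO replicate 2 stood far above the other C3_KO tumours, and the groups overlapped. The log2 fold change against WT was -0.13 ± 0.32 (SE) in C3_KO and -0.16 ± 0.32 in S1pr1_KO (edgeR adjusted p = 0.925 and 0.83). The libraries with the 3 highest Srebf2 levels, C3_KO replicate 2, S1pr1_KO replicate 3 and WT replicate 1, had luminal epithelium scores of 8.68, 8.81 and 9.05 in mean log2 CPM. Those were 3 of the 4 highest of the 12, the other being 8.74 in C3_KO replicate 3, where Srebf2 was next to lowest. The part of epithelial content in these levels was not tested.

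In C3_KO against WT, 5 of the 8 genes were higher and 3 lower, where 54.2% and 45.8% of all genes were, with a median log2 fold change of 0.03 beside 0.05 for all genes tested. None of the 8 was called (edgeR adjusted p from 0.824 to 0.991), where 0% of all genes were called, and none reached an unadjusted p of 0.05, where 6.23% of all genes did. DESeq2 and limma-voom also called none of the 8 in this comparison, where they called 0.267% and 0.0163% of all genes. Ribosomal protein genes, 10 of 10 measured and all lower, had a mean log2 CPM of 9.21 to 9.95 in C3_KO against 10.12 to 10.39 in WT, and their part was not tested. No gene of the 8 separated the groups without overlap, against 3.04% of all genes. The 95% intervals of the difference, from the SE with 9 degrees of freedom, were narrowest for Lss at -0.43 to 0.65 and widest for Fdps at -1.50 to 0.62 on the log2 scale. Without C3_KO replicate 3 the values of Hmgcs1, Sqle, Idi1 and Cyp51 turned to -0.27, -0.27, -0.25 and -0.24, so their directions rested on that library.

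In S1pr1_KO against WT, which shares the WT libraries with the comparison above, 7 of the 8 genes were lower and Lss was higher. Of all genes 48.3% were lower and 51.7% higher, and the median log2 fold change was -0.21 for the 8 genes and 0.03 for all. EdgeR called none of the 8 (adjusted p from 0.629 to 0.901) and 0% of all genes. None of the 8 reached an unadjusted p of 0.05, where 15.5% of all genes did. DESeq2 called none, with 3.03% of all genes called. Limma-voom called 1 of the 8, Fdft1, with 25.5% of all genes called, so this count was not above the background. The groups overlapped for all 8 genes, against 7.58% of all genes that did not overlap. Intervals ran from -0.86 to 0.31 for Sqle and from -1.43 to 0.68 for Fdps. Without WT replicate 4 the values of Hmgcs1, Idi1 and Cyp51 turned to 0.03, 0.21 and 0.20. The ribosomal protein genes, again all lower, had a mean log2 CPM of 9.00 to 10.11 in S1pr1_KO against the same WT range, and cell cycle genes, 10 of 10 measured, 4.48 to 5.43 against 5.60 to 5.90. Their part in the lower values was not tested.

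Between the strains with a targeted allele, S1pr1_KO against C3_KO, 6 of the 8 genes were lower and 2 higher, where 53.8% and 46.2% of all genes were, with a median log2 fold change of -0.13 beside -0.03 for all genes. None was called (edgeR adjusted p = 1 for each), with 0% of all genes called, and none reached an unadjusted p of 0.05, where 3.4% of all genes did. DESeq2 and limma-voom called none of the 8, with 0.346% and 0% of all genes called. The largest difference was that of Idi1, at -0.32 ± 0.38 (SE), with an interval of -1.17 to 0.53. All 8 genes overlapped between the groups, against 1.31% of all genes that did not.

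**Figure D2:**
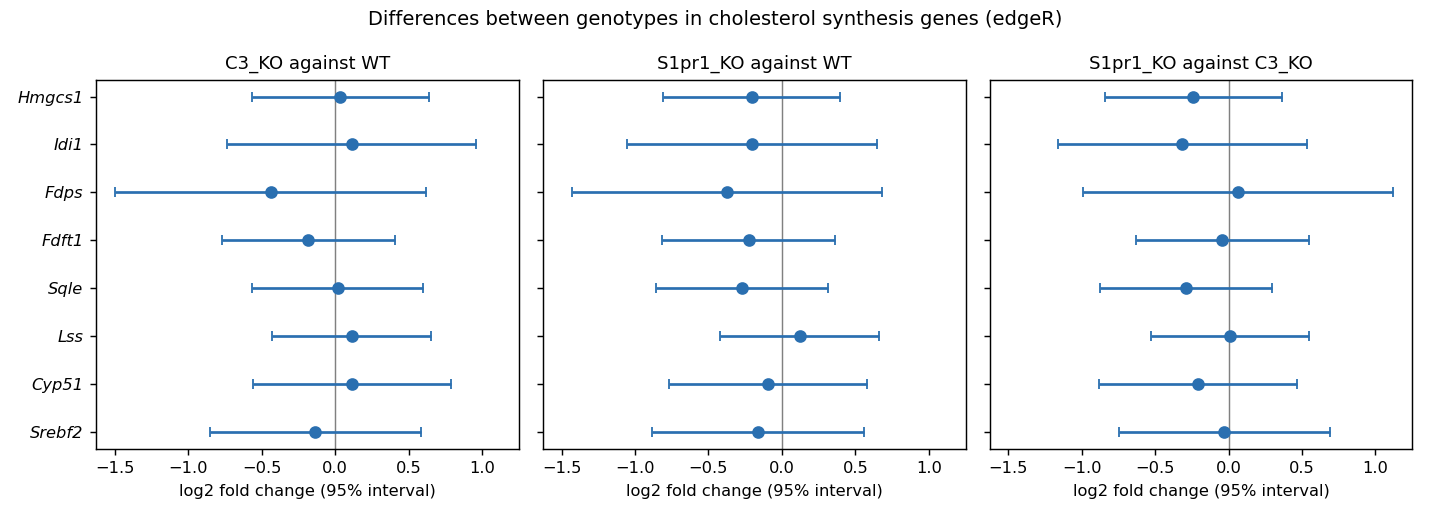
Points are log2 fold changes of the 8 genes in the 3 comparisons and bars are 95% intervals from the edgeR SE with 9 degrees of freedom, on a shared horizontal axis with a line at 0. Every interval includes 0, and Fdps has the widest in each panel.

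Across the 12 tumours only some pairs of the 8 genes passed a test of correlation. Pearson correlations of log2 CPM over the 12 libraries were positive for 25 of the 28 pairs, with a median of 0.39. Of the 28 pairs, 6 had an adjusted p below 0.05 in a two-sided permutation test with 100000 resamples and Benjamini-Hochberg adjustment over the 28. Hmgcs1 and Idi1 were the closest pair, with r = 0.90 (permutation p = 1.4e-04, adjusted p = 0.00392) and Spearman's rho = 0.78 (permutation p = 0.0045, adjusted p = 0.0315). Leaving out WT replicate 4 and C3_KO replicate 3, the libraries farthest from the median of Hmgcs1, r was 0.74. Hmgcs1 and Cyp51 had r = 0.84 (permutation p = 0.00248, adjusted p = 0.0231) and rho = 0.57 (permutation p = 0.0579, adjusted p = 0.182). This relation rested on the same libraries, with r = 0.27 without them. Idi1 and Cyp51 had r = 0.72 (permutation p = 0.00859, adjusted p = 0.048) and rho = 0.45 (permutation p = 0.146, adjusted p = 0.293). Without C3_KO replicates 2 and 3, the libraries farthest from the median of Idi1, r was 0.71, but without WT replicate 4 and C3_KO replicate 3 it was 0.13, so this relation rested on those libraries too.

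Sqle and Cyp51 had r = 0.82 (permutation p = 8.9e-04, adjusted p = 0.0125) and rho = 0.81 (permutation p = 0.00217, adjusted p = 0.0203), and r was 0.63 without C3_KO replicate 3 and S1pr1_KO replicate 1. Fdps was correlated with both Srebf2 and Fdft1. Fdps and Srebf2 had r = 0.75 (permutation p = 0.00671, adjusted p = 0.047) and rho = 0.68 (permutation p = 0.0181, adjusted p = 0.083). Fdps and Fdft1 had r = 0.71 (permutation p = 0.0103, adjusted p = 0.048) and rho = 0.85 (permutation p = 0.00114, adjusted p = 0.0203). Without C3_KO replicate 4 and S1pr1_KO replicate 1 these were r = 0.68 and 0.67. Sqle and Fdps had rho = 0.81 (permutation p = 0.00172, adjusted p = 0.0203), while their r of 0.68 was just outside (permutation p = 0.0127, adjusted p = 0.051) and was 0.73 without C3_KO replicate 3 and S1pr1_KO replicate 1. Hmgcs1 and Idi1 had r between -0.50 and 0.11 with Fdps, Fdft1 and Srebf2. With Sqle, r was 0.58 for Hmgcs1 and 0.44 for Idi1 (permutation test, adjusted p = 0.161 and 0.325).

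The regulator and the head of the pathway ran in opposite directions without passing the test. Srebf2 had r = -0.50 with Idi1 (permutation p = 0.101, adjusted p = 0.257) and rho = -0.57 (permutation p = 0.0585, adjusted p = 0.182). With Hmgcs1 it had r = -0.41 (permutation p = 0.187, adjusted p = 0.348) and rho = -0.41 (permutation p = 0.194, adjusted p = 0.323). These values depended on which libraries were left out. Without WT replicate 4 and C3_KO replicate 3, Srebf2 had r = -0.65 with Idi1 and -0.56 with Hmgcs1. Without C3_KO replicates 2 and 3, the farthest from the median of Idi1, Srebf2 and Idi1 had r = -0.09. After the genotype means were subtracted and labels permuted within genotype, Hmgcs1 with Idi1 had r = 0.91, Sqle with Cyp51 0.85 and Fdps with Srebf2 0.73. At that setting 0 of the 28 pairs had an adjusted p below 0.05, the lowest being 0.0549 (permutation test), and 7 had an unadjusted p below 0.05, as many as without subtraction. The count of 6 was sensitive to single libraries. It was 2 without WT replicate 3, WT replicate 4 or C3_KO replicate 3, and 3 without WT replicate 1, C3_KO replicate 1 or S1pr1_KO replicates 1 or 2. With C3_KO replicate 3 and WT replicate 4 both left out, 1 pair passed.

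**Figure D3:**
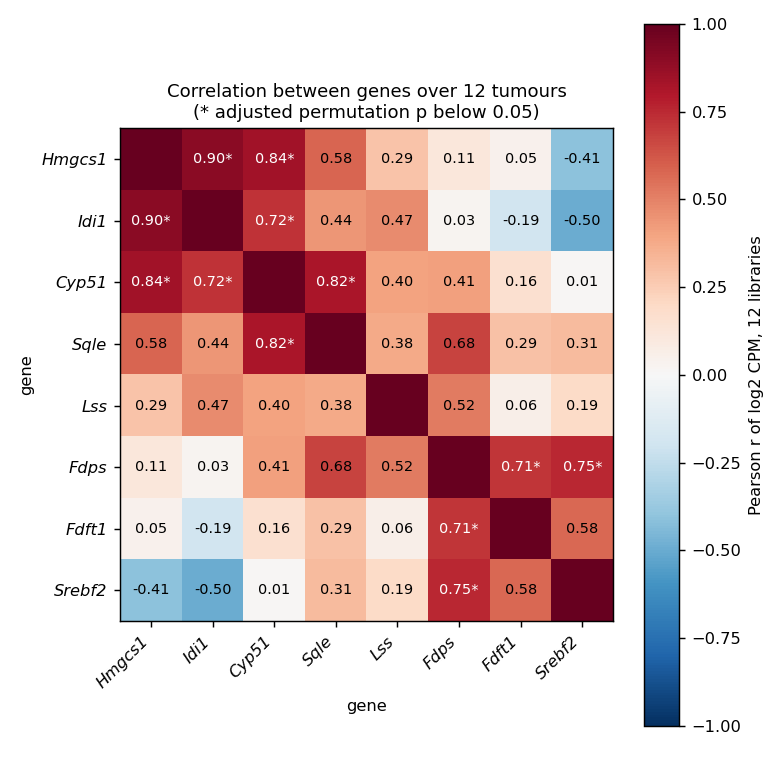
Colour and number give Pearson's r of log2 CPM over the 12 libraries for each pair of the 8 genes, and a star marks an adjusted permutation p below 0.05. The 6 starred pairs fall among Hmgcs1, Idi1, Cyp51 and Sqle in the upper left and around Fdps in the lower right, and Srebf2 with Idi1 is the lowest at -0.50.

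Seen by tumour, C3_KO replicate 3 and WT replicate 4 were the only libraries in which all 7 enzymes lay above their own medians. C3_KO replicate 3 ranked first of 12 for Hmgcs1, Idi1, Sqle and Cyp51, and its Srebf2 level was 11th of 12. S1pr1_KO replicate 1 had 0 of 7 enzymes above the median and the lowest Srebf2. WT replicate 1 had 6 of 7 above, and S1pr1_KO replicate 3 had 5 of 7, with the exception of Hmgcs1 and Idi1. C3_KO replicate 3 was the library rich in milk transcripts, and WT replicate 4 was not, with a milk score of 3.98 in mean log2 CPM, the lowest of the WT libraries. S1pr1_KO replicate 1 carried the most salivary and adipocyte transcripts and had the lowest luminal score. These scores are shown beside the genes, and their part was not tested.

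The genotypes also overlapped for each of the other enzymes of sterol synthesis. All 12 of them were measured and none was called by edgeR in any of the 3 comparisons. None reached an unadjusted p of 0.05, and none was called by DESeq2. In C3_KO against WT 4 were higher and 8 lower, where 54.2% and 45.8% of all genes were, with a median log2 fold change of -0.05. In S1pr1_KO against WT 2 were higher and 10 lower, where 51.7% and 48.3% of all genes were, with a median of -0.22. Limma-voom called 5 of the 12 in the latter comparison, where it called 25.5% of all genes. The calls in this list thus depended on the method, and whether 5 of 12 exceeds that share was not tested. The smallest edgeR p in S1pr1_KO against WT was that of Acat2, the thiolase that makes acetoacetyl-CoA, at log2 -0.45 ± 0.22 (SE) with an adjusted p of 0.331.

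By library, late enzymes of the route differed in where they were highest. Msmo1, a sterol methyl oxidase, reached 29.3 CPM in C3_KO replicate 3, with WT replicate 4 next at 23.5 CPM, against 11.0 to 19.0 CPM in the other libraries. Dhcr7, the last reductase, was highest in S1pr1_KO replicate 3 and C3_KO replicate 2, at 112 and 102.6 CPM, the libraries of highest Srebf2, against 36.3 to 70.9 CPM elsewhere.

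Among 12 genes of sterol sensing and SREBP processing, none was called by edgeR or reached an unadjusted p of 0.05 in any comparison. Scap, which escorts SREBP2 to the Golgi, was at log2 -0.07 and -0.06 in C3_KO and S1pr1_KO against WT, and Insig1, which retains it and is itself a target, at 0.02 and 0.17. Srebf1, the relative that mainly drives fatty acid synthesis, was highest where Srebf2 was highest, reaching 1458 CPM in C3_KO replicate 2 while S1pr1_KO replicate 3 had 1293 CPM. It was lowest in C3_KO replicate 3, at 339 CPM. In the list of 10 uptake and transport genes, 1 had an unadjusted p below 0.05 in C3_KO against WT, where 6.23% of all genes did. It was the lysosomal lipase gene Lipa at log2 0.64 (edgeR adjusted p = 0.765). In S1pr1_KO against WT there was none, where 15.5% of all genes had such a p. Stard4, a cytosolic sterol carrier, was at log2 -0.52 there (edgeR adjusted p = 0.363).

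The 10 genes for the liver X receptors (LXR), efflux, esterification and oxysterols were not called by edgeR either. In S1pr1_KO 7 of the 10 were above WT, where 51.7% of all genes were, the median log2 fold change being 0.24. Of the 10, 3 had an unadjusted p below 0.05, where 15.5% of all genes did. They were the cholesterol exporter gene Abca1 at log2 0.81, the LXR target Mylip at 0.63 and the sterol hydroxylase gene Cyp27a1 at 1.24, with edgeR adjusted p-values of 0.295, 0.295 and 0.284. Of the 10, only Mylip was higher in S1pr1_KO than in WT without overlap, where 7.58% of all genes did not overlap in either direction. Abca1 stood at 65.4, 87.1, 23.6 and 63.9 CPM in S1pr1_KO against 26.9 to 47.7 CPM in WT, so replicate 3 lay below all WT tumours and the others above. In C3_KO against WT 4 of the 10 were higher, where 54.2% of all genes were, with a median of -0.07. Of the 10, 1 had an unadjusted p below 0.05, where 6.23% of all genes did. It was the esterification gene Soat1 at log2 -0.74 (edgeR adjusted p = 0.765). Of 12 fatty acid synthesis genes, 9 were higher in C3_KO and 8 in S1pr1_KO against WT, where 54.2% and 51.7% of all genes were. The medians were 0.36 and 0.29, beside 0.05 and 0.03 for all genes, and none of the 12 was called by edgeR. In C3_KO 4 of the 12 had an unadjusted p below 0.05, where 6.23% of all genes did. They were Acaca at log2 1.06, Scd1 at 1.10, Fads1 at 0.43 and Thrsp at -0.99 (edgeR adjusted p = 0.765 for each). C3_KO replicate 3 was the highest library for Acaca, Scd1 and Fads1, at 222, 1419 and 153.6 CPM. The part of that library in these values was not tested. In S1pr1_KO there were 2 with such a p, where 15.5% of all genes had one. They were Scd1 at 1.18 and Gpam at 0.64 (edgeR adjusted p = 0.243 and 0.265). Of 6 isoprenoid branch enzymes, 3 and 1 were higher, where 54.2% and 51.7% of all genes were. Their medians were 0.03 and -0.15, and edgeR called none of them.

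The 10 genes whose pattern over the tumours was most like that of the 8 held 2 other enzymes of the pathway. The further enzymes were spread from rank 51 to rank 7648. Likeness was Pearson's r, over 12 libraries after the genotype mean was subtracted, to the mean of the 8 standardised genes, among the 15871 genes whose average log2 CPM was 1 or more. Nsdhl, a sterol dehydrogenase, was first with r = 0.94 and Msmo1 the fourth with 0.93. The others of the 10 highest were Fam136a at 0.94, the bacterial sensor gene Nod2 at 0.93, the 14-3-3 gene Ywhah at 0.92, Gfod2 at 0.92, the endosomal sorting gene Vps36 at 0.92, Nob1 of ribosome assembly at 0.91, the phosphatase gene Dusp7 at 0.91 and Luzp1 at 0.91. Mvd, the decarboxylase of the mevalonate pathway, ranked 51st with 0.85. Pmvk, Hsd17b7 and Acat2 had r of 0.77, 0.76 and 0.76, at ranks 258, 283 and 301. Ebp, Mvk and Dhcr7 had r of 0.58, 0.53 and 0.50, at ranks 1655, 2325 and 2624. Sc5d and Tm7sf2 had r of 0.16 and 0.13, at ranks 7263 and 7648 of 15871. The ranking is over 12 libraries that the genes share, and is a description.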

How the data were processed

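Total RNA of 12 tumours was sequenced by a company from Illumina libraries, per the labels' protocols. The authors deposited 1 table of whole-number counts for each gene and 1 of FPKM; 682317 of 682320 deposited FPKM values equalled the count scaled by the deposited gene length and column total within a relative tolerance of 1e-04. Per the submitters' processing notes, StringTie and GRCm39 were named; what aligned and counted the reads, and whether strand was used, is not stated there. Of counts from 1 to 50, 60.2 to 64.4% were even numbers, so mates may have been counted singly and the totals may exceed the fragments.

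Genotype came from the labels, and replicate numbers follow accession order and pair nothing. Counts were tested with edgeR 4.0.16 in R 4.3.3 (filterByExpr, TMM, robust quasi-likelihood, 1 mean per genotype, 12 libraries, 9 residual degrees of freedom, Benjamini-Hochberg over 30660 genes; common biological coefficient of variation 0.564), checked on simulated counts. The SE is the log2 fold change over the root of F. Log2 CPM use a prior count of 2. Permutation tests used numpy 2.4.6. Alternatives were DESeq2 1.42.0, limma 3.58.1 (voom with quality weights, and log2(FPKM + 1) or log2(FPKM + 0.1)), other scalings and filters, 2-group fits and left-out libraries. Copies and overlapping genes were sought with BLAST+ 2.17.0 at 90% identity over 300 bases and in GENCODE M21, by name only. The members and the 6 pathway and 11 marker lists were chosen with earlier results of these data known. All 8 members were named; from the pathway lists, called genes or those of smallest p were to be named, with any of the sterol synthesis and sensing lists; Abca1, Thrsp, Fads1 and the library values of other pathway genes, were added after their values were seen. One gene of the sterol enzyme list is not reported here by name.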

Additional observations from a re-analysis of the deposited data

Results flagged for a closer look

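In each of the 24 sets of 4 libraries (8 genes by 3 genotypes), the gap between the most extreme library and its nearest neighbour was set against Dixon's 95% critical value. Chance passes this limit in about 1 in 20 sets. Cyp51 in C3_KO replicate 3, at 51.45 CPM, lay apart from the other C3_KO tumours at 23.0 to 26.3 CPM, with a gap of 0.886 of the range. Srebf2 in C3_KO replicate 2, at 272.5 CPM, lay apart from 118 to 130.3 CPM in the others, with a gap of 0.922 of the range.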

How the results depend on the processing

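The count of called genes among the 8 was 0 in each comparison under edgeR's other scalings and filters, DESeq2, limma on FPKM, 2-group fits and every left-out library; limma-voom with quality weights called 1 in S1pr1_KO against WT (Fdft1). Over all genes in that comparison the count was 0 with edgeR, 930 with DESeq2, 7828 with limma-voom and 1330 without S1pr1_KO replicate 3. Of 176 fold changes recomputed per comparison (8 genes, 22 alternatives), 20 changed sign in C3_KO against WT, 16 in S1pr1_KO against WT and 31 between the knockout strains; the cause was not tested. Total counts without scaling moved the median of all genes from 0.05 to 0.19 in C3_KO and from 0.03 to 0.20 in S1pr1_KO against WT. In S1pr1_KO against WT this turned Idi1 to 0.012, Cyp51 to 0.106 and Srebf2 to 0.012, all below that shift, and Srebf2 to 0.036 between the knockout strains. With DESeq2, or its size factors in edgeR, Srebf2 turned to 0.011 between the knockout strains, and with only the 2 groups compared to 0.01. On log2(FPKM + 1), Idi1 and Cyp51 turned to 0.044 and 0.088 in S1pr1_KO against WT, and Fdps and Srebf2 to -0.019 and 0.038 between the knockout strains. On log2(FPKM + 0.1) these were 0.05, 0.101, -0.028 and 0.039. With limma-voom, Hmgcs1, Sqle, Idi1 and Cyp51 turned to -0.081, -0.13, -0.04 and -0.114 in C3_KO against WT, and Fdps and Lss to -0.209 and -0.079 between the knockout strains. Leaving out C3_KO replicate 3 and S1pr1_KO replicates 1 and 4 together, Hmgcs1, Sqle, Idi1, Cyp51 and Srebf2 turned to -0.241, -0.245, -0.224, -0.21 and 0.014 in C3_KO against WT. Fdps, Fdft1 and Srebf2 turned to 0.02, 0.022 and 0.044 in S1pr1_KO against WT, and Sqle, Idi1, Fdft1, Cyp51 and Srebf2 to 0.025, 0.003, 0.211, 0.112 and 0.03 between the knockout strains.

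With single libraries left out, values in C3_KO against WT ran from -0.269 to 0.25 for Hmgcs1, -0.273 to 0.126 for Sqle, -0.254 to 0.511 for Idi1, -0.043 to 0.285 for Lss and -0.238 to 0.385 for Cyp51. In S1pr1_KO against WT they ran from -0.347 to 0.028 for Hmgcs1, -0.359 to 0.214 for Idi1, -0.035 to 0.294 for Lss, -0.239 to 0.2 for Cyp51 and -0.347 to 0.044 for Srebf2. Between the knockout strains they ran from -0.388 to 0.059 for Hmgcs1, -0.566 to 0.048 for Idi1, -0.475 to 0.32 for Fdps, -0.323 to 0.084 for Fdft1, -0.104 to 0.126 for Lss, -0.35 to 0.141 for Cyp51 and -0.241 to 0.347 for Srebf2. The number of correlated pairs, 6 of 28, was 0 on deviations from the genotype means, 4 on log2(FPKM + 1) or with total counts, 2 to 5 with single libraries left out, and 1 without C3_KO replicate 3 and WT replicate 4, an alternative chosen after seeing the data. No paired analysis was possible because the labels give no replicate numbers shared between genotypes.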

Other observations

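C3_KO replicate 3, the tumour with the highest Hmgcs1, Idi1, Sqle and Cyp51, also had the highest level of several other lipid genes. Acaca, which makes malonyl-CoA for fatty acids, stood at 222 CPM there against 45.7 to 111.9 CPM in the other 11 libraries. Scd1, the stearoyl-CoA desaturase gene, stood at 1419 CPM against 263 to 1183 CPM, and the sterol carrier gene Stard4 at 38.3 CPM against 14.2 to 25.4 CPM. Skin keratinocyte genes had a mean log2 CPM of 6.51 in that tumour and milk protein genes 12.30, each the highest of the 12, and their part in these values was not tested.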
